A study of Mus musculus with 4 samples.

Results

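At E15.5 the epithelium of the mouse mammary rudiment was compared with the mesenchyme around it, gene by gene, in 1 single-cell RNA-seq library. Cells were chosen by their own UMIs of 9 genes (unique molecular identifiers, each standing for 1 counted transcript). Of 2642 cell barcodes in the E15.5 table, 816 had at least 5000 UMIs and at most 6% of them on mitochondrial genes. A cell was taken as epithelial when its UMIs of Epcam, Krt8, Krt18, Krt5, Krt14 and Krt15 summed to at least 10 and to more than 2 times its UMIs of Col1a1, Col1a2 and Col3a1, and when it had at least 5 UMIs of Krt8 and Krt18 together. A cell was taken as mesenchymal when the 3 collagen genes summed to at least 10 UMIs and to more than 2 times the 6 epithelial genes. This gave 445 epithelial cells (54.5% of the kept cells, exact 95% binomial interval 51.0 to 58.0) and 279 mesenchymal cells (34.2%, 30.9 to 37.6). The remaining 92 cells met neither rule. Together the tissues hold 724 of the 1630 cells kept by the same filter in all libraries of the series.

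The series holds 1 library for each of 4 stages, namely P0 and the embryonic days E13.5, E14.5 and E15.5, made from female WT C57B6 mice (C57 B6/N in the study's methods) with the 10x Genomics Chromium 3' v3.1 kit. At E15.5, rudiments with their surrounding mesenchyme were dissected from several embryos and pooled, digested with collagenase A and hyaluronidase, and sorted after removal of CD45+, CD31+ and Ter119+ cells, that is leukocytes, endothelial cells and red blood cells. The cells were also stained for EpCAM, so the share of each tissue rests on the sort as well as on the rule. Each stage was dissected in a session of its own, so stage and library cannot be told apart. P0 glands were also digested with other amounts of both enzymes, and their red blood cells were lysed. At P0, stage and preparation therefore cannot be told apart either. No value has a replicate, so no test was run and no p-value is given. The intervals are exact 95% intervals that cover counting error only, and cells of 1 library are not replicates of a tissue.

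The mammary bud is an epithelial ingrowth of the ventral skin that sprouts into the mesenchyme below it at about this age. Epithelia hold together by adherens junctions, desmosomes and tight junctions and rest on a basement membrane, while mesenchymal cells lie singly in a matrix of fibrillar collagens and proteoglycans. The tissues instruct each other through secreted signals, among them WNTs, FGFs, parathyroid hormone-related protein and hormones acting on receptors in the mammary mesenchyme.

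The tissues stood well apart on the genes used to assign them. The 6 epithelial genes summed to between 26 and 1209 UMIs in an epithelial cell, with a median of 175. In a mesenchymal cell they summed to a median of 1 and at most 131. The 3 collagen genes summed to between 51 and 2054 UMIs in a mesenchymal cell, with a median of 280. In an epithelial cell they summed to a median of 1 and at most 27. No assigned cell had a sum of 10 to 12 UMIs or stood between 2 and 3 times the other sum, and 7 unassigned cells reached 10 UMIs on both sides. The minimum of Krt8 and Krt18 was the only limit with cells beside it, since 17 epithelial cells had 5 or 6 UMIs of the pair, and 20 cells just outside had 3 or 4. In all, 81 of the 92 unassigned cells met the epithelial rule but for this minimum. These values chose the cells and are given as a description.

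Markers that took no part in the assignment followed it. Twist2, a transcription factor of mesenchyme, reached 344 CPM (a gene's share of all UMIs of the tissue, scaled to 1000000) in the mesenchyme and 1.07 CPM in the epithelium. All 12 mesenchymal markers outside the rule, Twist2 among them, were called higher in the mesenchyme. Of 12 further epithelial markers, 9 had a mean of at least 10 CPM over the tissues, and these were called higher in the epithelium. A marker near 0 in 1 tissue passes that minimum only through the other, so these counts are partly set by it. Shares called over all tested genes were 16.9% and 14.7%. Summed over all 12 epithelial markers, the level was 3606 CPM in the epithelium and 37.0 CPM in the mesenchyme. The mesenchymal markers still summed to 579 CPM in the epithelium, most of it Sparc at 371 CPM and Vim at 138 CPM. In the epithelium 326 of 445 cells had 10 or more of their UMIs. For the epithelial markers, 2 of 279 mesenchymal cells did. The epithelial markers Ehf and Elf5 were at 0 UMIs in the mesenchyme. Defining genes of the sorted-out cell types were at or near 0 in both tissues. The 8 immune markers summed to 0.574 CPM in the epithelium and 1.13 CPM in the mesenchyme, with Ptprc at 0 in both. The 8 endothelial markers summed to 8.21 and 22.2 CPM, and the 8 erythroid markers to 1.07 and 1.27 CPM. The 8 epidermal markers summed to 735 CPM in the epithelium and 45.6 CPM in the mesenchyme, and 138 of the 445 epithelial cells had 10 or more of their UMIs. Of other lists, the pericyte and smooth muscle markers summed to 439 and 368 CPM, most of it Tagln, an actin-binding protein, at 347 CPM in the epithelium and 203 CPM in the mesenchyme. Smooth muscle actin, Acta2, of the same list was called higher in the mesenchyme, at 135 CPM against 42.3 CPM, and 78 of 279 mesenchymal cells and 156 of 445 epithelial cells had 10 or more UMIs of the list. The part of such cells in the results was not tested. The Schwann cell markers summed to 148 and 9.43 CPM, most of it Erbb3. The epidermal sum was mostly Krtdap, an epidermal differentiation gene, which was at 656 CPM and had a UMI in 83.4% of epithelial cells. The paper lists Krtdap among genes of its luminal-like mammary cluster at E15.5, which it defined after removing skin cells. No cell was left out here for skin genes, and the part of skin cells in this sum was not tested.

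Median depth per cell was close in the tissues, while total depth was not. The epithelium held 12185866 UMIs with a median of 24813 per cell, and the mesenchyme held 7106018 with a median of 24324. The median mitochondrial share was 4.99% against 4.27%. The E15.5 library shares 1 barcode with each of 2 other libraries, and no kept cell was among them.

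Most genes differed by less than 2-fold between the tissues, while 463 were at least 4-fold higher in the epithelium and 581 in the mesenchyme. Of 31053 genes in the table, 7900 had a mean of at least 10 CPM over the tissues, with the 9 genes of the assignment rule left out. A gene was called when its ratio of summed UMIs was at least 2-fold and its interval excluded 1. In the epithelium 1162 genes were called higher, which is 14.7% of those tested, and in the mesenchyme 1333 genes were called higher, which is 16.9%. These shares are the background for every list count below. The other 5405 genes were not called. Of these, 3875 had an interval that excluded 1 at under 2-fold, and 1530 an interval that held 1. At least 16-fold differences were found for 191 genes toward the epithelium and 232 toward the mesenchyme. The median log2 ratio of epithelium over mesenchyme of all tested genes was -0.00. Scaling by the TMM factors of edgeR moved that median to 0.11 and the counts to 1369 and 1198, so differences close to 2-fold rest on the scaling.

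**Figure D1:**
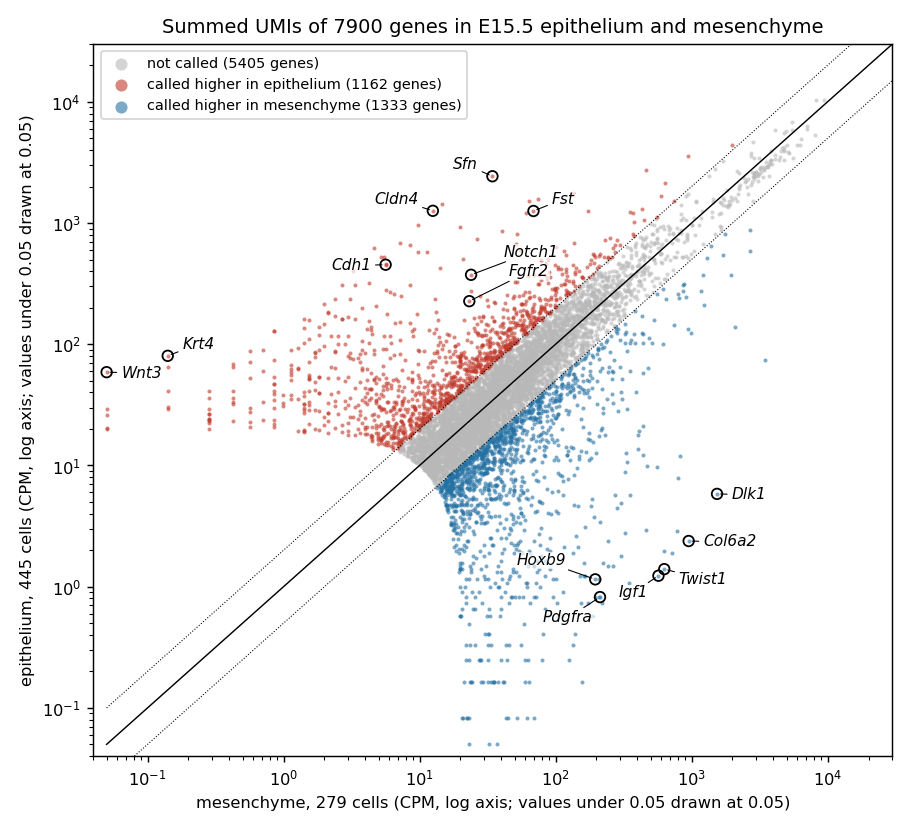
Each point is 1 of 7900 tested genes at its summed level in the 279 mesenchymal cells (x axis, CPM, log scale) and the 445 epithelial cells (y axis, CPM, log scale), with the line of equality solid and the 2-fold lines dotted. The red cloud of 1162 genes called higher in epithelium and the blue cloud of 1333 called higher in mesenchyme both reach gene levels near 0 in the other tissue, and ringed genes are named in the text.

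Genes with the largest ratios toward the epithelium were a WNT ligand, tight junction proteins and genes of stratified epithelium. Wnt3, a secreted WNT ligand, had 717 UMIs in the epithelium, or 58.8 CPM, and 0 in the mesenchyme, which is at least 113-fold higher by the exact interval and 139-fold over a mesenchyme given 3 counts. On the log2 scale the value at 3 counts was 7.12, and it was 4.74 after thinning each cell to 5000 UMIs and 6.32 without cycling cells, those with 2 or more UMIs of Top2a and Mki67, where fewer UMIs were counted. It had a UMI in 58.0% of epithelial cells and in 0 of 279 mesenchymal cells, an exact upper limit of 1.31% on cells with a UMI, which does not limit the share that express it. Zfp750, a transcription factor of epidermal differentiation, had 785 UMIs against 1, or 64.4 and 0.141 CPM. F2rl1, a protease-activated receptor, was at 404 CPM against 3.24 CPM. The polarity gene Crb3 was at 127 CPM against 0.844 CPM. These 4 genes were seen in a majority of epithelial cells.

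The keratin Krt4 shows how few cells can carry such a ratio. Its 978 UMIs in the epithelium, 80.3 CPM, came from 4 cells, against 1 UMI in the mesenchyme. With 67 epithelial cells left out that had 3 or more UMIs of the epidermal genes Krt1, Krt10 and Lor, its log2 ratio was -0.47. In the mesenchyme 18 of 279 cells met the same limit and were kept. Among the genes called higher in the epithelium, 6 drew over 50% of their UMIs from 5 cells, and 7 did among those called higher in the mesenchyme. Krt19, a keratin of simple epithelium, also belonged to these, with 51.3% of its UMIs in 5 cells. The median gene drew 6.39% of its UMIs from 5 epithelial cells or 11.3% from 5 mesenchymal cells.

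Among genes at high levels in the epithelium, Sfn, the 14-3-3 sigma protein of keratinocytes, was at 2431 CPM against 34.3 CPM in the mesenchyme. Fst, the secreted activin and BMP antagonist follistatin, was at 1257 CPM against 68.8 CPM. Its log2 ratio of 4.19 was 3.50 with cycling cells left out of both tissues. It varied widely between epithelial cells, from 57.0 CPM at the 10th percentile to 3033 CPM at the 90th. The keratin Krt17 spread similarly, from 35.4 to 1642 CPM, around a summed level of 685 CPM against 7.18 CPM in the mesenchyme.

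Components of the desmosome and the tight junction were higher in the epithelium. Summed over all 10 desmosome genes, the level was 1793 CPM in the epithelium and 51.2 CPM in the mesenchyme, a ratio of 35 (31.5 to 38.9). Summed over all 19 tight junction genes, it was 3344 and 107 CPM, a ratio of 31.4 (29.2 to 33.7). In these lists 1 and 8 genes were below the minimum level, and the 9 and 11 genes above it were called higher in the epithelium. A gene near 0 in 1 tissue passes that minimum only through the other, so these counts are partly set by it. Of 6 catenins and plaque proteins of the adherens junction, 6 were called higher in the epithelium, but at a median log2 ratio of 1.49. That median was 6.19 for the tested desmosome genes and 6.31 for the tested tight junction genes. Of all tested genes 14.7% were called in this direction. Cldn4, a claudin of tight junction strands, was at 1261 CPM in the epithelium and 12.5 CPM in the mesenchyme, a ratio of 101 (81.8 to 125). It had a UMI in 99.1% of epithelial cells and in 19.4% of mesenchymal cells. Cldn7 was at 624 CPM against 4.64 CPM and occludin, Ocln, at 181 CPM against 2.11 CPM. Dsp, the desmosomal linker to keratin filaments, was at 460 CPM against 5.63 CPM, and the desmosomal cadherin Dsg2 at 235 CPM against 2.39 CPM. The plaque protein Jup was at 428 CPM against 14.1 CPM, whereas Ctnnb1, beta-catenin, which also acts in WNT signaling, was at 438 CPM against 208 CPM. The 2.11-fold ratio of Ctnnb1 fell below 2 when epithelial cells needed no minimum of Krt8 and Krt18.

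Several cadherins divided by tissue. Cdh1, E-cadherin, was at 453 CPM in the epithelium and 5.63 CPM in the mesenchyme, and it had a UMI in 99.1% of epithelial and 8.96% of mesenchymal cells. Cdh11, a cadherin of mesenchyme, was at 556 CPM in the mesenchyme and 9.68 CPM in the epithelium, a ratio of 57.5 (47.8 to 69.6). Cdh3, P-cadherin, followed Cdh1 with 55.6 CPM against 1.13 CPM. Cdh6 was not called, with 174 CPM in the mesenchyme and 90.1 CPM in the epithelium. Of all 72 tested adhesion genes, 52 were called higher in the epithelium and 11 in the mesenchyme, with a median log2 ratio of 2.28 against -0.00 over all tested genes. This total depends on the lists pooled, since it holds the desmosome, tight junction and catenin genes above, all called higher in the epithelium. Among 10 tested integrins, 3 were called higher in the epithelium, 3 in the mesenchyme and 4 in neither. The shares over all tested genes were 14.7% toward the epithelium and 16.9% toward the mesenchyme.

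The promoters of Cldn4, Ocln and Epcam are shown because each carries the hexamer CACCTG, the E-box that ZEB and SNAI repressors recognise, here read on both strands as CACCTG or CAGGTG. Those of Twist2 and Igf1, a transcription factor and a growth factor of the mesenchyme, are shown for contrast and hold no match. Sequences are from RefSeq on GRCm38.p6 and run 5' to 3' on the gene's strand from 250 bases before the annotated transcription start to 30 bases after it, with the matches in capitals. Positions are counted from 0 at the start. The matches of Cldn4 (chr5:134946905-134947184, minus strand) begin at -14 and 11, those of Epcam (chr17:87635729-87636008, plus strand) at -187 and -19, and that of Ocln (chr13:100552689-100552968, minus strand) at 7. Twist2 is at chr1:91801211-91801490 and Igf1 at chr10:87860861-87861140, both on the plus strand. Epcam was one of the genes used to assign cells.
Cldn4: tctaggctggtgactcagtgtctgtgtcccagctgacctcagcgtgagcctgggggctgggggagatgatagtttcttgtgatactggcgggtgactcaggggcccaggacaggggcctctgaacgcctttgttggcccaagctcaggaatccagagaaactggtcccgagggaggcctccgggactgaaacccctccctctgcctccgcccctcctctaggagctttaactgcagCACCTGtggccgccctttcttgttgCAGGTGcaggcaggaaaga
Epcam: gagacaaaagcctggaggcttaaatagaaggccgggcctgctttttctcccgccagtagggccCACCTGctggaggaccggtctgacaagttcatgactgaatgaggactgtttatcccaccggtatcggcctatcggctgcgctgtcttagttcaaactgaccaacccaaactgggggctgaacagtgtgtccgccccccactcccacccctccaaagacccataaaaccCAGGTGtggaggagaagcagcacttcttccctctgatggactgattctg
Ocln: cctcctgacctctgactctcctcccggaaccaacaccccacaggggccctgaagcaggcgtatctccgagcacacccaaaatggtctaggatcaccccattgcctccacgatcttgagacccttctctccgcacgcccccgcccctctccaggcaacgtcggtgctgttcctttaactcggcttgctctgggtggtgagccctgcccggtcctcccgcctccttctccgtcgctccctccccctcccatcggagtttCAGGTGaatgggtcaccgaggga
Twist2: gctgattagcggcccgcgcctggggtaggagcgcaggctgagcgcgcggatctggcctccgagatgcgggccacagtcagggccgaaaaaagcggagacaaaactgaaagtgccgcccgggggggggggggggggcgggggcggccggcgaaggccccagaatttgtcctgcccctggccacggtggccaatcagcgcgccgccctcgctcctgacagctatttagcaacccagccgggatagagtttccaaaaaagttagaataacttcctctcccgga
Igf1: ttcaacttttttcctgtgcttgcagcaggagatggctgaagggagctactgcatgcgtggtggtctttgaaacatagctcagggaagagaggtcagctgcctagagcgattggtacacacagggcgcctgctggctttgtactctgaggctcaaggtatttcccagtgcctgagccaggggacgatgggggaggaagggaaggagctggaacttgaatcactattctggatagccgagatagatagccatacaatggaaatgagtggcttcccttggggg

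The hexamer was more frequent before genes called higher in the epithelium than before the rest. In windows from 250 bases before to 50 after the start, 20.2% of all 32851 RefSeq promoters and 18.6% of the 6217 tested genes with a sequence held it. It stood in 29.7% of the 890 genes called higher in the epithelium and in 15.9% of the 1005 called higher in the mesenchyme. Among genes at least 16-fold higher in the epithelium the share was 50.4%, 65 of 129, and among those at least 16-fold higher in the mesenchyme it was 12.7%, 20 of 158. With genes of a single annotated start, these shares were 53.2% and 9.45%. Of the 9 tested tight junction genes with a sequence, all of them called higher in the epithelium, 7 held a match. Of list members below the minimum level, Tjp3 held a match, while Cldn5, Cldn10, Cldn11, Cldn12 and Cgn held none. Of the tested epithelial transcription factors 2 of 14 held a match, of the mesenchymal ones 1 of 18, and of the elastic fibre, proteoglycan and glycoprotein genes 1 of 19. A match describes letters in a window and not a bound site.

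**Figure D2:**
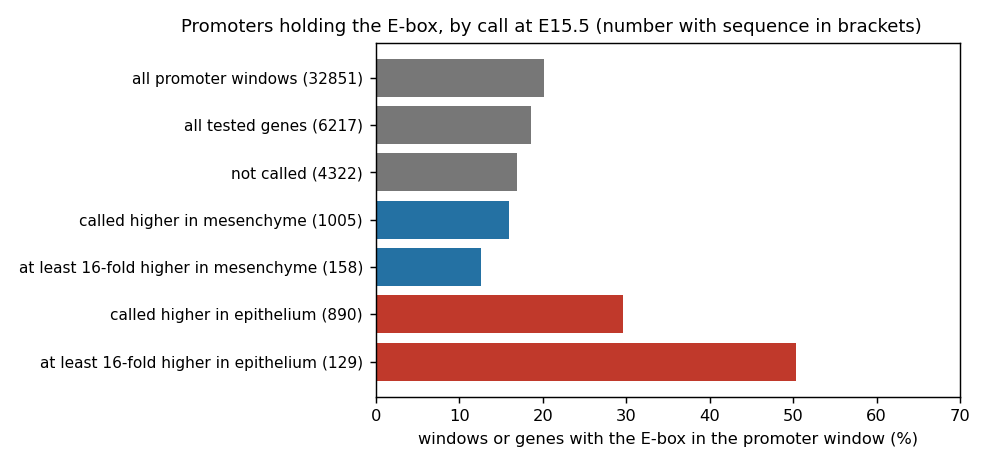
Bars give the percent of promoter windows (top bar) or genes with a sequence (other bars) that hold CACCTG or CAGGTG within 250 bases before to 50 after a start, with their number in brackets. The share is 50.4% for genes at least 16-fold higher in the epithelium and between 12.7% and 20.2% in the grey and blue bars.

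Among the listed mesenchymal transcription factors, those of the ZEB and TWIST families stood far apart between the tissues. Zeb2, a zinc finger repressor, was at 466 CPM in the mesenchyme and 2.95 CPM in the epithelium, and Zeb1 at 56.1 CPM against 0.328 CPM. Snai2, of the SNAI family, was at 68.5 CPM in the mesenchyme and 56.2 CPM in the epithelium and was not called. Twist1, a bHLH factor that binds other E-boxes, was at 630 CPM in the mesenchyme and 1.40 CPM in the epithelium, a ratio of 452 (282 to 776), and was detected in 98.9% of mesenchymal and 3.15% of epithelial cells. Prrx1, a homeobox factor of limb and body wall mesenchyme, was at 265 CPM against 1.48 CPM. Sim2, a bHLH-PAS factor, was at 125 CPM against 0.246 CPM. Of the 30 tested genes listed as mesenchymal factors, 20 were called higher in the mesenchyme and 4 in the epithelium, with a median log2 ratio of -3.09. Over all tested genes the shares were 16.9% and 14.7%. The exceptions included Foxp1, a forkhead factor, at 533 CPM in the epithelium and 208 CPM in the mesenchyme, and Irx3, an Iroquois homeobox factor, at 105 CPM against 14.2 CPM.

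Hox genes, which set position along the body, were higher in the mesenchyme. Summed over all 37 listed genes, the level was 744 CPM in the mesenchyme and 19.1 CPM in the epithelium, 38.9-fold apart (34.1 to 44.6). Above the minimum level were 12 genes, all through the mesenchyme, and these were called, against 16.9% over all tested genes. Hoxb9 was at 196 CPM in the mesenchyme and 1.15 CPM in the epithelium. Hoxc6 was at 86.1 CPM against 2.05 CPM, and Hoxc8 at 67.3 CPM against 5.50 CPM.

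The epithelial transcription factors covered the surface ectoderm, stratified epithelium and mammary lineages. Of 26 tested, 16 were called higher in the epithelium and 3 in the mesenchyme, against 14.7% and 16.9% over all tested genes. Ovol1, a zinc finger factor, was at 319 CPM against 4.22 CPM. Grhl3, a grainyhead factor, was at 184 CPM against 2.11 CPM. Trp63, which encodes the basal factor p63, was at 74.7 CPM against 0.844 CPM, with a UMI in 67.6% of epithelial cells. Gata3, a luminal regulator in the adult gland, was at 178 CPM against 5.77 CPM and Sox9 at 504 CPM against 21.0 CPM. Tbx3, which the mammary line needs, went the other way with 121 CPM in the mesenchyme and 39.0 CPM in the epithelium. The splicing regulator Esrp1, a marker of epithelia kept in the same list, was at 136 CPM against 1.41 CPM.

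Most listed matrix genes were higher in the mesenchyme. Of 35 tested genes of elastic fibres, proteoglycans and glycoproteins, 32 were called higher in the mesenchyme and none in the epithelium, with a median log2 ratio of -3.70. Summed over all 44 listed, the level was 10528 CPM in the mesenchyme and 1474 CPM in the epithelium. Of 14 further collagen genes tested, 12 were called higher in the mesenchyme, with a median log2 ratio of -4.54. Summed over all 20 listed, the level was 4129 and 243 CPM. The mesenchymal share over all tested genes was 16.9%. A gene near 0 in the epithelium, such as Col6a2, passes the minimum level only through the mesenchyme, which partly sets these counts. Col6a2, a chain of the microfibrillar collagen VI, was at 952 CPM in the mesenchyme and 2.38 CPM in the epithelium and had a UMI in 100% of mesenchymal cells. Lum, the proteoglycan lumican, was at 712 CPM against 1.89 CPM, and decorin, Dcn, at 801 CPM against 7.88 CPM. Postn, periostin, was at 818 CPM against 11.9 CPM. Fn1, fibronectin, was not called, with 313 CPM in the mesenchyme and 170 CPM in the epithelium. Col9a3, a chain of collagen IX, was the 1 listed collagen higher in the epithelium, at 46.0 CPM against 20.5 CPM, a call that was lost without cycling cells and when all cells weighed equally.

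Within the mesenchyme these genes were unevenly spread. Ogn, the proteoglycan osteoglycin, was at 134 CPM but had a UMI in 40.1% of mesenchymal cells, and its median cell had none. Lum ran from 0 CPM at the 10th percentile of cells to 2125 CPM at the 90th, while Col6a2 ran from 469 to 1420 CPM. Dlk1, a noncanonical Notch ligand of embryonic mesenchyme, ran from 446 to 4264 CPM around a summed level of 1539 CPM, against 5.83 CPM in the epithelium. Cd34, a surface protein of stromal and vascular cells, was at 156 CPM with UMIs in 90.0% of mesenchymal cells, against 0.164 CPM. Crabp1, a retinoic acid binding protein, was at 630 CPM against 1.97 CPM.

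**Figure D3:**
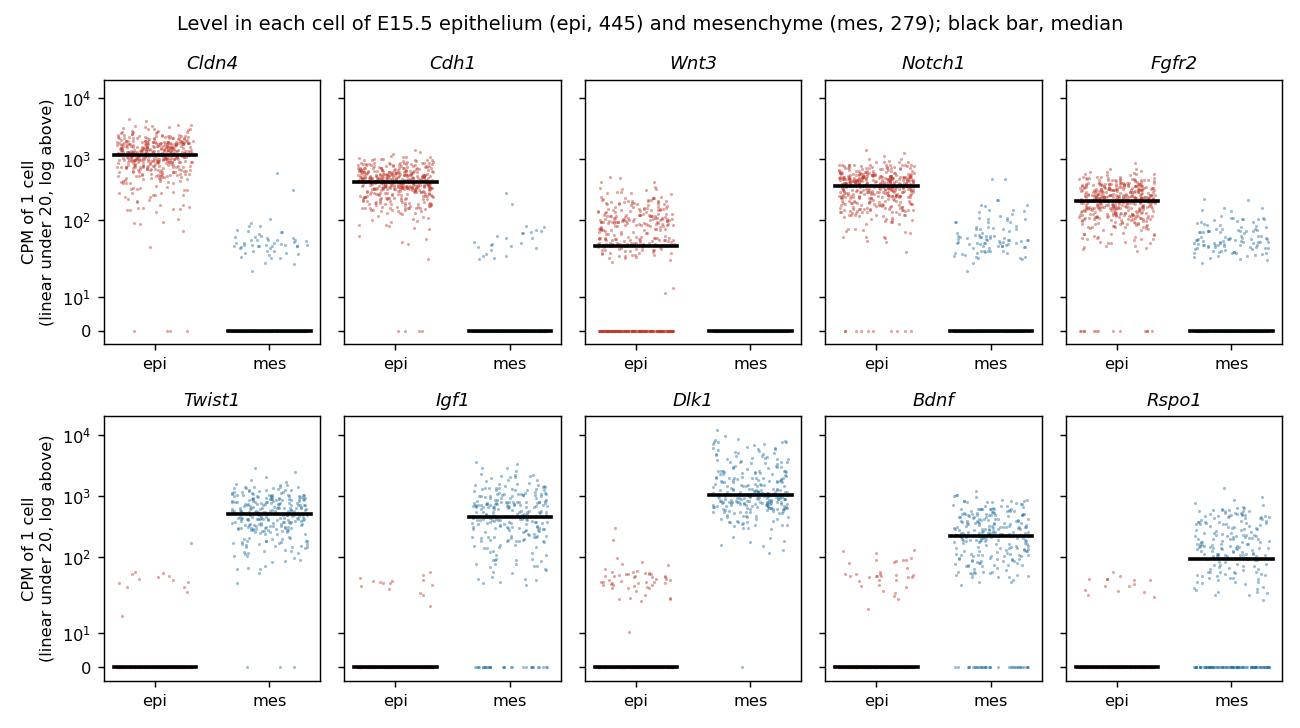
Each dot is 1 cell, at its own level in CPM (y axis, linear under 20 and log above), for 445 epithelial cells (epi) and 279 mesenchymal cells (mes), and black bars are medians. The upper genes lie high in most epithelial cells and the lower genes in most mesenchymal cells, while Wnt3 and Rspo1 have many cells at 0 in the tissue that expresses them.

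Basement membrane genes were divided between the tissues. Of 18 tested, 8 were called higher in the epithelium, 4 in the mesenchyme and 6 in neither. Over all tested genes 14.7% and 16.9% were called in the 2 directions. The laminin chain Lama3 was epithelial, at 117 CPM against 2.53 CPM. Lama4 and the linker nidogen, Nid1, were mesenchymal, at 42.1 CPM against 0.164 CPM and at 104 CPM against 4.02 CPM. Col4a1, the main collagen IV chain, was at 74.9 CPM in the mesenchyme and 74.7 CPM in the epithelium. The Fraser complex was split, since Fras1 was at 83.6 CPM in the epithelium against 4.64 CPM, while Frem1 was at 61.4 CPM in the mesenchyme against 0.985 CPM.

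Receptors for matrix followed the same division. Itgb4, the hemidesmosome integrin, was at 38.3 CPM in the epithelium and 1.13 CPM in the mesenchyme, and its partner Itga6 at 196 CPM against 41.0 CPM. The common subunit Itgb1 was not called, with 512 CPM and 423 CPM. The collagen receptor kinases were opposed. Ddr1 was at 124 CPM in the epithelium against 12.7 CPM, and Ddr2 at 173 CPM in the mesenchyme against 0.739 CPM. Among proteases and inhibitors, the membrane protease St14 and its inhibitor Spint1 were epithelial, at 62.7 CPM against 1.13 CPM and 158 CPM against 1.55 CPM. The gelatinase Mmp2 was mesenchymal, at 182 CPM against 11.5 CPM.

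**Figure D4:**
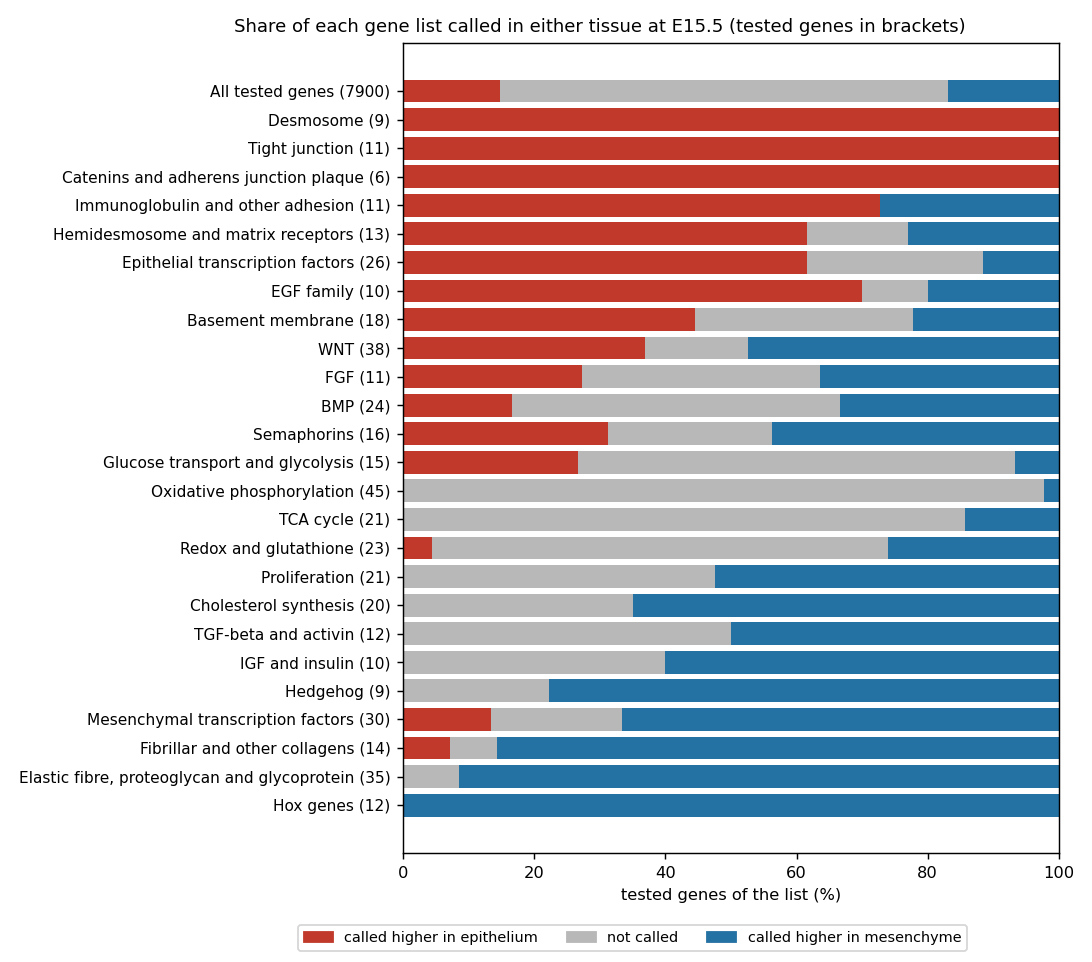
Bars give, for all 7900 tested genes and for 25 lists, the percent of tested genes called higher in the epithelium (red), in neither (grey) or higher in the mesenchyme (blue), with the number tested in brackets. Bars are over tested genes alone, and desmosome and tight junction bars are wholly red and the Hox bar wholly blue, whereas oxidative phosphorylation is grey but for 1 gene.

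Ligands and receptors of the lists were called in both directions. Of 67 tested ligands, 23 were called higher in the epithelium and 29 in the mesenchyme. Of 79 tested receptors, the counts were 19 and 33, and of 21 modulators 3 and 14. These are 34.3% and 43.3% of the ligands, 24.1% and 41.8% of the receptors and 14.3% and 66.7% of the modulators, against 14.7% and 16.9% over all tested genes. Another 76 listed ligands were below the minimum level and were not tested.

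In the WNT pathway most tested ligands were epithelial and most tested secreted modulators mesenchymal. Of 18 listed ligands, 12 were below the minimum level. Of the 6 tested, 4 were called higher in the epithelium and 2 in the mesenchyme, against 14.7% and 16.9% over all tested genes. Summed over all 18, the level was 409 CPM in the epithelium and 296 CPM in the mesenchyme, a ratio of 1.38 (1.31 to 1.45). Wnt6 was at 118 CPM against 2.96 CPM and Wnt10b at 39.4 CPM against 1.83 CPM, and Wnt4 at 127 CPM against 42.9 CPM. Wnt5a, a ligand of the noncanonical branch, was at 174 CPM in the mesenchyme and 16.4 CPM in the epithelium, and Wnt11 at 63.0 CPM against 13.7 CPM. Ror2, a receptor for Wnt5a, was in the same tissue, at 49.0 CPM in the mesenchyme against 1.40 CPM.

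Of 10 tested WNT modulators, 7 were called higher in the mesenchyme and 1 in the epithelium, against 16.9% and 14.7% over all tested genes. With the membrane Kremen receptors set apart, 7 of 8 secreted ones were mesenchymal and none epithelial. That split was made after the values were seen. Rspo1, Wif1 and Dkk2 passed the minimum level only through the mesenchyme. Rspo1, an R-spondin that raises WNT receptor levels, was at 151 CPM in the mesenchyme and 1.23 CPM in the epithelium, with UMIs in 67.0% and 3.37% of cells. The inhibitors Wif1 and Dkk2 were at 164 CPM against 1.23 CPM and at 112 CPM against 0.574 CPM. Dkk2 was found in 44.4% of mesenchymal cells. Receptors of R-spondins were epithelial, with Lgr5 at 85.0 CPM against 13.51 CPM and Lgr4 at 72.7 CPM against 19.8 CPM. Kremen2, a DKK co-receptor in the membrane, was at 49.2 CPM in the epithelium against 1.69 CPM, and Kremen1 was not called, at 28.6 CPM against 18.7 CPM.

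Targets of WNT signaling were found on both sides. Axin2, a feedback inhibitor, was at 168 CPM in the mesenchyme and 13 CPM in the epithelium, a ratio of 12.9 (11 to 15.4), and Nkd1 was at 119 CPM against 14.2 CPM. Rnf43, a ubiquitin ligase that removes WNT receptors, was at 32.1 CPM in the epithelium against 0.422 CPM. Lef1, the nuclear partner of beta-catenin, was at 202 CPM in the epithelium and 100 CPM in the mesenchyme. Its 2.01-fold ratio lay at the limit of a call, which it lost with a mitochondrial maximum of 10% and with no minimum of Krt8 and Krt18.

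FGF receptors were opposed. Fgfr2 was at 227 CPM in the epithelium and 23.2 CPM in the mesenchyme, a ratio of 9.76 (8.34 to 11.5), with UMIs in 97.1% and 38.4% of cells. Fgfr1 was at 184 CPM in the mesenchyme and 43.2 CPM in the epithelium. Fgf7 and Fgf10, ligands of the epithelial form of FGFR2, were below a mean of 10 CPM over the tissues and were not tested. Fgf10 had 40 UMIs in the mesenchyme and 1 in the epithelium, and 8.24% of mesenchymal cells had one. Fgf7 had 136 UMIs against 3, in 27.2% of mesenchymal cells. Among 9 tested feedback and target genes, 2 were called higher in the epithelium and 3 in the mesenchyme. The other 4 were not called, and the median log2 ratio was -0.70. The shares over all tested genes were 14.7% and 16.9%. Dusp6, a feedback phosphatase of the pathway, was at 216 CPM in the epithelium against 84.4 CPM. Spry4, a feedback inhibitor, was at 26.7 CPM in the mesenchyme against 4.10 CPM. Spry2, of the same family, was not called, at 120 CPM in the epithelium and 194 CPM in the mesenchyme.

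EGF family ligands and receptors were mostly in the same tissue. Of 4 tested ligands 3, and of 6 receptors and regulators 4, were called higher in the epithelium, against 14.7% over all tested genes. Areg, amphiregulin, was at 64.2 CPM against 2.39 CPM, Epgn at 41.5 CPM against 0.844 CPM, and Hbegf at 59.2 CPM against 18.9 CPM. Erbb3 was at 146 CPM against 1.97 CPM, Egfr at 52.1 CPM against 8.87 CPM and Erbb4 at 41.1 CPM against 0.281 CPM. Nrg1, a neuregulin and ligand of ERBB3, was higher in the mesenchyme, at 65.2 CPM against 24.6 CPM, and this call was lost after thinning each cell to 5000 UMIs.

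Of 3 tested Notch receptors, 2 were called higher in the epithelium, against 14.7% over all tested genes. Notch1 was at 374 CPM in the epithelium and 23.9 CPM in the mesenchyme, with UMIs in 97.8% and 33.3% of cells, and the target Hes1 at 668 CPM against 50.9 CPM. Notch3 was at 42.0 CPM against 13.8 CPM, and Notch2 was not called, at 64.5 CPM and 65.3 CPM. The ligand Jag1 was not called, with 64.5 CPM and 55.2 CPM.

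Ligands and modulators of TGF-beta and activin signaling, and most Hedgehog genes, lay toward the mesenchyme. Among all tested genes 16.9% were called higher there and 14.7% in the epithelium. Of the TGF-beta and activin list, 3 of 5 tested ligands and 3 of 4 modulators were called higher in the mesenchyme and none in the epithelium, while none of 3 tested receptors was called. Inhba, the activin A subunit that follistatin binds, was at 65.9 CPM against 4.76 CPM. Of 9 tested Hedgehog genes 7 were called higher in the mesenchyme, among them the target Gli1 at 19.7 CPM against 1.56 CPM and the coreceptor Gas1 at 176 CPM against 11.1 CPM. The ligand Shh had 2 UMIs in the epithelium and none in the mesenchyme. BMP receptors were shared, with none of 5 called, and Bmpr1a was at 156 CPM in the mesenchyme and 92.6 CPM in the epithelium. Grem1, a secreted BMP antagonist, was at 68.4 CPM in the mesenchyme against 8.53 CPM.

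Of 6 listed hormone receptors, 1 was below the minimum level and the other 5 were called higher in the mesenchyme. Over all tested genes 16.9% were called higher there. A gene near 0 in the epithelium, such as Pth1r, passes that minimum only through the mesenchyme, so this count is partly set by it. Esr1, the estrogen receptor, was at 68.7 CPM in the mesenchyme against 16.9 CPM. Pthlh, which encodes parathyroid hormone-related protein, was at 47.3 CPM in the epithelium against 17.3 CPM, and its receptor Pth1r at 60.8 CPM in the mesenchyme against 1.07 CPM. Igf1, an insulin-like growth factor, was at 571 CPM in the mesenchyme and 1.23 CPM in the epithelium, a ratio of 464 (281 to 829), and its receptor Igf1r was not called, with 167 CPM in the epithelium and 99.1 CPM in the mesenchyme. In the epithelium 3.37% of cells had a UMI of Igf1, against 89.2% of mesenchymal cells.

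Guidance molecules and neurotrophins were also divided. Sema3d was at 76.5 CPM in the epithelium against 6.05 CPM, and Sema3c at 123 CPM against 26.9 CPM, with a log2 ratio of 2.20 that was 1.49 without cycling cells. The semaphorin receptor Nrp1 was at 153 CPM in the mesenchyme against 13.1 CPM. Sema5a was at 408 CPM in the mesenchyme against 19.2 CPM. Bdnf, a neurotrophin, was at 284 CPM in the mesenchyme and 4.43 CPM in the epithelium, a ratio of 64.0 (48.9 to 85.5), with UMIs in 87.5% of mesenchymal cells, and its receptor Ntrk2 was at 25.6 CPM in the same tissue against 0.328 CPM.

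Chemokines and cytokines went both ways. Cxcl10 was at 595 CPM in the epithelium against 54.5 CPM. Il24 was at 87.6 CPM against 0.563 CPM, with UMIs in 33.9% of epithelial cells. Ccl2 was at 163 CPM in the mesenchyme against 1.23 CPM, and 5 cells held 47.3% of its mesenchymal UMIs. The midkine gene Mdk was at 1213 CPM in the mesenchyme against 375 CPM, and its receptor Ptprz1 at 86.3 CPM in the epithelium against 2.39 CPM.

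Of 82 listed ligand and receptor pairs, 25 had both members called, and 13 of these had them called in opposite tissues. The rest of the 25 had both members in the same tissue, 6 in the epithelium and 6 in the mesenchyme. Whether the listed pairs favour opposite tissues was not tested. In 8 of the 13 opposite pairs the ligand was epithelial and the receptor mesenchymal, and in 5 the reverse. The first group held Pdgfa, a platelet-derived growth factor, at 78.6 CPM in the epithelium against 16.6 CPM, with its receptor Pdgfra at 212 CPM in the mesenchyme against 0.821 CPM, and Pthlh with Pth1r. It also held Wnt3 and Wnt10b with Fzd1, Pdgfc with Pdgfra, Sema3c with Nrp2, Sema3d with Nrp1, and Npnt with Itga8. The second group held Rspo1 with Lgr4, Rspo3 with Lgr5, Nrg1 with Erbb3, and Mdk with Ptprz1 and Sdc4. Several pairs share a member, and a further 33 pairs had a member below the minimum level. Levels of transcripts do not show that a pair signals.

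**Figure D5:**
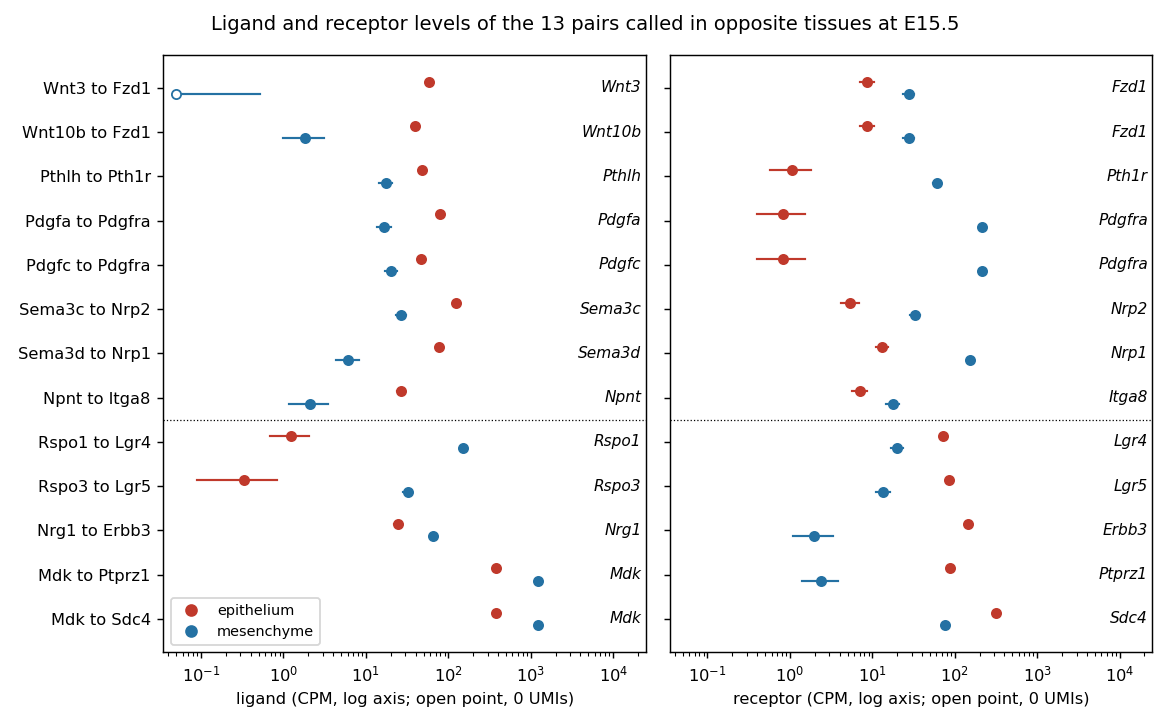
For the 13 pairs called in opposite tissues, points give the ligand (left) and receptor (right) level in CPM on a log axis in epithelium (red) and mesenchyme (blue), with exact 95% Poisson intervals as lines. Above the dotted line the ligand is higher in the epithelium in 8 pairs, and below it the ligand is higher in the mesenchyme in 5 pairs.

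Metabolic genes were seldom called higher in the epithelium. Of 165 tested, 10 were called there (6.06%, against 14.7% over all genes), 36 in the mesenchyme (21.8%, against 16.9%) and 119 in neither. Among 45 genes of oxidative phosphorylation, 44 were not called, with a median log2 ratio of -0.27. The cytochrome oxidase subunit Cox4i1 was at 721 CPM in the epithelium and 790 CPM in the mesenchyme. Of 15 tested genes of glucose transport and glycolysis, 4 were called higher in the epithelium, 1 in the mesenchyme and 10 in neither. The glucose transporter Slc2a1 was at 96.3 CPM against 18.3 CPM and hexokinase Hk1 at 20.8 CPM against 6.61 CPM. Pfkl, a phosphofructokinase, was at 46.0 CPM against 13.9 CPM and the lactate dehydrogenase Ldhb at 49.5 CPM against 23.5 CPM. Pfkfb3, which makes an activator of phosphofructokinase, was the mesenchymal one, at 15.2 CPM against 6.73 CPM, a call that was lost after thinning and without cycling cells. Gapdh was not called, at 688 CPM and 566 CPM.

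Cholesterol synthesis leaned toward the mesenchyme, where 13 of 20 tested genes were called higher and none in the epithelium, with a median log2 ratio of -1.31. The mesenchymal share over all tested genes was 16.9%. Hmgcs1, the synthase at the head of the pathway, was at 331 CPM in the mesenchyme and 126 CPM in the epithelium. Msmo1, a sterol demethylation enzyme, was at 222 CPM against 26.9 CPM, and Insig1, a sterol-regulated retention factor, at 144 CPM against 9.52 CPM. A pair of enzymes of peroxide removal in the secretory pathway were mesenchymal, Gpx7 at 137 CPM against 8.37 CPM and Prdx4 at 261 CPM against 59.8 CPM.

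Of 21 tested proliferation genes, 11 were called higher in the mesenchyme and none in the epithelium, against 16.9% and 14.7% over all tested genes. Top2a, a topoisomerase of dividing cells, was at 360 CPM against 108 CPM. Cells with 2 or more UMIs of Top2a and Mki67 made up 96 of 279 mesenchymal cells (34.4%, 28.8 to 40.3) and 109 of 445 epithelial cells (24.5%, 20.6 to 28.8). After thinning every cell to 5000 UMIs the shares were 25.1% (20.1 to 30.6) and 13% (10.0 to 16.5). With those cells left out of both tissues, the counts over all genes were 1220 toward the epithelium and 1268 toward the mesenchyme.

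The same rule was applied to the other libraries, where 61 epithelial and 129 mesenchymal cells were found at E13.5, 23 and 31 at E14.5, and 227 and 265 at P0. Of the 1162 epithelial genes of E15.5, 1006 were tested at E13.5 and 500 of them (49.7%) were called the same way. The share was 65.7% at E14.5 and 55.8% at P0. Of the 1333 mesenchymal genes it was 62.0%, 69.0% and 54.8%. Calls in the opposite direction made up between 0.662% and 7.05% of the tested genes. These shares also move with the number of cells and UMIs of each library.

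Cdh1, Cldn4, Col6a2, Twist1 and Igf1 were each called in the same direction in all 4 libraries. Cdh1 was at 185, 232 and 543 CPM in the epithelium of E13.5, E14.5 and P0, against 1.71, 1.19 and 13.8 CPM in the mesenchyme. Cldn4 was at 923, 467 and 1176 CPM against 5.56, 1.19 and 32.6 CPM. Col6a2 was at 258, 462 and 1184 CPM in the mesenchyme against 0, 2.88 and 5.80 CPM in the epithelium. Twist1 was at 602, 819 and 179 CPM in the mesenchyme against 3.32, 7.19 and 0.774 CPM in the epithelium. Igf1 was at 216, 222 and 264 CPM against 13.3, 2.88 and 0.774 CPM.

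Several signaling genes had their lowest level of the 4 libraries at P0. Wnt3 was at 124 CPM in the epithelium at E13.5 and 147 CPM at E14.5, and had 0 UMIs in both tissues at P0. Rspo1 was at 95.8 and 162 CPM in the mesenchyme at E13.5 and E14.5 and at 0.814 CPM at P0. Axin2 was at 109 and 130 CPM there, and at 3.26 CPM at P0. Bdnf was at 58.6 and 69.2 CPM before its 284 CPM at E15.5, and at 2.44 CPM at P0. Stage and library cannot be told apart in these values.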

How the data were processed

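Rudiments of pooled embryos were sequenced as 1 single-cell library per stage. The authors deposited UMI counts per gene and cell barcode, made with Cell Ranger on mm10. The submitters' processing notes give version 6.0.0, while the E15.5 file header gives 3.1.0 and the headers of the other 3 stages 6.0.0. These counts are neither normalized nor corrected for free RNA, and depth is uneven between cells (6036 to 96675 UMIs in epithelium, 5021 to 56546 in mesenchyme). The filter of 5000 UMIs and 6% mitochondrial UMIs follows the study's, and it left more E15.5 cells than the study states.

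UMIs were summed over the cells of each tissue and divided by all its UMIs (CPM). Ratios have exact conditional binomial 95% intervals, CPM exact Poisson and shares exact binomial (Clopper-Pearson) intervals. A tissue at 0 was set to 3 counts over all its cells. Cells were not tested as replicates. Tested genes had a mean of 10 CPM or more, and calls needed 2-fold with an interval excluding 1. Genes were named from the 15 highest conservative ratios and the 10 highest levels (4-fold or more) per direction, the leading called and uncalled members of each list and role, the listed pairs and the markers, and a few further list members were chosen after their values were seen. Of 1004 list entries, 4 were not used, as the symbol had several rows (Aldoa, Atp5o, Hoxd4) or none (Ntn3). Members and lists were chosen with earlier results of these data known, and the proliferation list is partly the study's own. Doublets were kept, since Scrublet (scanpy 1.11.5) marked 3 kept cells and none in either tissue. Alternatives changed cell filters, gates, thinning, weights, scaling (edgeR 4.0.16, TMM), level filters and fold limits. Python 3.11.15 with numpy 2.4.6, scipy 1.17.1 and pandas 2.3.3 was used, and the procedure was tested on simulated data. A few results are not reported here. RefSeq promoters were matched by symbol, for 6217 of 7900 tested genes.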

Additional observations from a re-analysis of the deposited data

Results flagged for a closer look

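For several genes the same contrast was called in the opposite direction in another library. Genes named only in the interferon, immediate early and heat shock lists below were not screened for this. The difference between libraries was not tested, stage and library cannot be told apart, and the cells behind the contrast are fewer in each of the other libraries.

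Before E15.5, Esr1, called higher in the E15.5 mesenchyme, was higher in the epithelium at E13.5, with 27.4 against 12.4 CPM (2.21-fold), and at E14.5, with 47.5 against 21.5 CPM (2.21-fold). The contrast rests on 61 epithelial and 129 mesenchymal cells at E13.5 and on 23 and 31 at E14.5. No cell was left out here for skin genes, whereas the paper removed skin cells. The part of skin cells in these values was not tested. Nrg1, also mesenchymal at E15.5, was 2.31-fold higher in the epithelium at E14.5, with 33.1 against 14.3 CPM, and 12.5-fold higher there at P0, with 76.6 against 6.10 CPM.

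At P0, genes called mesenchymal at E15.5 were higher in the epithelium for retinoic acid binding Crabp1 by 6.02-fold, for Inhba by 8.21-fold, for Itga8 by 22.8-fold and for Msmo1 by 3.39-fold. Acta2, smooth muscle actin, was 38.2-fold higher in the P0 epithelium, at 435 CPM against 11.4 CPM. Top2a was 8.02-fold higher in the P0 epithelium, at 127 CPM against 15.9 CPM. Genes called epithelial at E15.5 were higher in the P0 mesenchyme for Cxcl10 by 16.1-fold, for Egfr by 2.29-fold, for Krtdap by 8.54-fold, for Sema3c by 7.22-fold and for Sema3d by 6.61-fold. Sema3c was at 558 CPM in the mesenchyme and 77.4 CPM in the epithelium of that library, and Cxcl10 at 674 CPM and 41.8 CPM.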

How the results depend on the processing

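No paired analysis was possible because each stage is 1 library and the result comes from no test. The direction of 136 of 137 called genes checked held under every alternative that changed cells, weights or scaling. Genes named only in the interferon, immediate early and heat shock lists below were not among those checked. The exception was Krt4, at a log2 ratio of -0.47 without the epidermis-like cells of the epithelium. Calls were lost for Lef1 (mitochondrial maximum of 10%, no Krt8 and Krt18 minimum), Ctnnb1 (no such minimum), Nrg1 (thinning), Pfkfb3 (thinning, no cycling cells), Col9a3 (no cycling cells, equal weights) and Top2a (no cycling cells, which are chosen on its own UMIs). Thinning to 5000 UMIs moved 42 of the 137 genes by over 1.5 times, such as Igf1 from -8.86 to -9.46. Leaving out cycling cells moved 21, such as Cdh1 from 6.33 to 5.74. Leaving out epidermis-like cells moved 8, dropping the Krt8 and Krt18 minimum 5, equal weights 2 (Ogn, Prrx1) and the 10% mitochondrial maximum 2 (Dcn, and Wnt3 to 7.82). Equal weights give no value for Wnt3, at 0 in the mesenchyme.

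The counts of called genes were 2320 toward the epithelium and 3545 toward the mesenchyme with no filter on low values, 494 and 348 from 50 CPM, 463 and 581 at 4-fold, and 2000 and 2135 at 1.5-fold. Pairs called in opposite tissues were 22 with no filter, 1 from 50 CPM and 4 at 4-fold. Without cycling cells 183 mesenchymal cells were left. TMM moved the epithelial share of calls from 46.6% to 53.3%, with the median of all genes at 0.11, and no call among the 137 genes checked was lost. Stricter gates changed no cell. At this depth 76 of 143 listed ligands were below the level filter.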

Other observations

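Interferon-inducible and antigen presentation genes were compared after their values had been seen, so the list supports nothing by its direction. Of 33 genes, 17 were tested. In the epithelium 12 were called higher and in the mesenchyme 4, with a median log2 ratio of 3.54 against -0.00 over all tested genes. The shares over all tested genes were 14.7% and 16.9%. Ifi202b, an interferon-inducible gene of the AIM2-like family, was at 1423 CPM in the epithelium and 14.6 CPM in the mesenchyme. Its neighbour Ifi203 was at 62.9 CPM against 1.27 CPM. Cd74, the invariant chain of MHC class II, was at 65.2 CPM against 0.422 CPM, and the guanylate-binding protein Gbp2 at 80.3 CPM against 2.96 CPM. The class I genes H2-K1 and H2-D1 were at 83.3 CPM against 7.18 CPM and at 129 CPM against 8.87 CPM. Ifitm1 and Irf1 went the other way, at 58.5 CPM in the mesenchyme against 2.95 CPM and at 54.6 CPM against 10.6 CPM. At P0 Ifi203 lay the other way, at 15.1 CPM in the epithelium against 317 CPM in the mesenchyme. Gbp2 did too, at 15.1 CPM against 68.4 CPM. Ifi202b was still higher in the P0 epithelium, at 191 CPM against 13.8 CPM, and Cd74 was at 3.87 CPM against 0 CPM. These differences between libraries were not tested. Ifi202b and Ifi203 belong to a cluster of similar genes, between which reads may be split. Leukocyte markers were near 0 in both tissues, with Ptprc at 0.

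Genes that respond to dissociation and heat were compared in the same way. Of 12 immediate early genes, 2 were called higher in the epithelium and 1 in the mesenchyme, with a median log2 ratio of 0.07. The called mesenchymal gene was Fos, at 384 CPM against 102 CPM. Of 12 heat shock genes the counts were 2 and 1, with a median of 0.02. Over all tested genes 14.7% and 16.9% were called, so these few calls do not set either list apart. Hspa1a was at 1699 CPM in the mesenchyme and 550 CPM in the epithelium, and Hspb1 at 3570 CPM in the epithelium and 936 CPM in the mesenchyme.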
